A study of Homo sapiens with 5 samples.

Results

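Aldehyde dehydrogenases oxidise aldehydes to carboxylic acids with NAD+ or NADP+ as the electron acceptor, and members of the family differ in their substrates and in where in the cell they work. The ALDH1A enzymes turn retinaldehyde into retinoic acid in the cytosol, the mitochondrial enzymes ALDH2 and ALDH1B1 clear acetaldehyde and related products, and the ALDH3 enzymes act on fatty, aromatic and lipid-derived aldehydes. In tumour cells, high aldehyde dehydrogenase activity, much of it ascribed to ALDH1A enzymes, is widely used to mark stem-like cells. The 10 genes described here (ALDH1A1, ALDH1A2, ALDH1A3, ALDH1B1, ALDH1L1, ALDH2, ALDH3A1, ALDH3A2, ALDH3B1 and ALDH7A1) were taken by name from the 37181 entries of a table of FPKM (fragments per kilobase of transcript, scaled to the mapped fragments of each library). The names were chosen with earlier results of these data known. Where a symbol had several entries, the one with the highest mean over the libraries was used.

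RNA sequencing had been carried out to find transcripts that differ between gefitinib-resistant HCC827/GR cells and the parental, gefitinib-sensitive HCC827 cells. HCC827 is a human lung adenocarcinoma line with a deletion in exon 19 of EGFR, which both groups carry, and gefitinib is an inhibitor of the EGFR tyrosine kinase. HCC827/GR was derived from HCC827 by gefitinib given in increasing doses for more than 6 months, so resistance is represented by 1 derived line. The comparison used HCC827/GR replicates 1, 2 and 3 and HCC827 replicates 2 and 3, and nothing in the labels says that the replicates were separate cultures, so the p-values measure only the spread between these libraries, which may be technical. The table holds no read counts, so the depth is unknown.

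In HCC827/GR cells, ALDH1A1 stood first among the 10 members by level, from the seventh place in HCC827 cells, with a mean of 187.8 FPKM against 0.616 FPKM. ALDH1A3, the leading member in HCC827 cells, was listed at 0.485 times its parental mean, and its groups did not overlap, but the difference did not pass the test over all genes. The entries of ALDH1B1, ALDH2, ALDH3A2, ALDH3B1 and ALDH7A1 were at similar levels in both lines, and those of ALDH1A2, ALDH1L1 and ALDH3A1 were near 0 in all 5 libraries. Of the 28 transcripts in the ALDH2 entry, 22 belong to the adjoining gene ACAD10. The entries of ALDH1A2, ALDH1L1 and ALDH3A1 hold only 2 of 8, 1 of 10 and 0 of 10 annotated coding transcripts. Their low values therefore do not show that the genes were silent.

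The 2 retinaldehyde-oxidising genes on which the balance turns have unlike sequence before their RefSeq starts. The 250 bases before their RefSeq transcript starts are given below on the coding strand (GRCh38.p14), with the CCAAT box, a common promoter element, in capitals. They are shown so that the start regions of the rising and the non-rising gene can be compared letter by letter.
ALDH1A1, chr9:72953054-72953303, minus strand: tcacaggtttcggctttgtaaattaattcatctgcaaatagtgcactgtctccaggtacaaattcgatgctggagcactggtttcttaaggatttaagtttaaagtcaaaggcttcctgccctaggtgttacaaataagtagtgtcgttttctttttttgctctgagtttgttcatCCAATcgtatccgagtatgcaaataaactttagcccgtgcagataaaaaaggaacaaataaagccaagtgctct
ALDH1A3, chr15:100879581-100879830, plus strand: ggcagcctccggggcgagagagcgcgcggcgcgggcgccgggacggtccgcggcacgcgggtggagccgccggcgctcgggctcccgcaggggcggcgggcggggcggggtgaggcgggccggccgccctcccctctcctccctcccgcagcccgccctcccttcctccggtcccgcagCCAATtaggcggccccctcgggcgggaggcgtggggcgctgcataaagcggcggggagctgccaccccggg

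Each window held 1 CCAAT match, 74 bases before the start of ALDH1A1 and 71 bases before that of ALDH1A3. The ALDH1A1 window had a GC content of 38.4% and 6 CpG dinucleotides, and 41.1% of the 35116 windows of this length in the table had as few. The ALDH1A3 window had a GC content of 82.4% and 38 CpG, a number that 97.3% of all windows did not exceed. The median window had 58.0% GC and 11 CpG. Counting matches on both strands, the ALDH1A3 window held 6 GC boxes (GGGCGG, present in 42.6% of all windows) and 2 copies of the xenobiotic response element core (GCGTG, in 32.2%), and the ALDH1A1 window held neither. TATAAA (in 10.7% of windows) and the AP-1 letters TGANTCA (in 6.57%) were in neither window, while CCAAT was in 32.0% of all windows. These matches describe the letters of the windows and are not measurements of binding. The annotated span of each gene, given below, begins farther upstream than its window, and which start these cells use was not measured. RefSeq windows were found for 8 of the 10 genes.

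The retinaldehyde dehydrogenases are ALDH1A1, ALDH1A2 and ALDH1A3. ALDH1A1 (ENSG00000165092, chr9:72900662-73080442, minus strand, GENCODE release 29, GRCh38) is the cytosolic family member most often linked to stem-like tumour cells. Its FPKM was 0.851 and 0.381 in HCC827 replicates 2 and 3, and 186.3, 300.7 and 76.4 in HCC827/GR replicates 1, 2 and 3. All 3 resistant libraries lay far above both parental ones, although they differed 3.94-fold among themselves. The means were 187.8 ± 112.1 FPKM (SD, n = 3) and 0.616 ± 0.332 FPKM (SD, n = 2), a ratio of 304.9. On the log2(FPKM + 1) scale the difference was 6.68 (SE 0.61, 95% confidence interval 5.10 to 8.25), with an adjusted p of 0.00862 by limma over the 16189 entries that averaged 0.5 FPKM or more. It ranked 2 of all tested entries by the size of its rise and 256 by p-value. Ordered by level within each library, ALDH1A1 stood at positions 13508 and 15033 of 16189 in HCC827 and at 68, 32 and 209 in HCC827/GR. The adjusted p was 0.0645 without HCC827 replicate 2 and 0.0628 without HCC827 replicate 3, with log2 differences of 6.89 and 6.47. In bulk samples, more cells with the transcript and more transcript in each cell cannot be told apart.

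ALDH1A3 (ENSG00000184254, chr15:100877714-100916626, plus strand) has the same substrate and is the family member that dominates in many epithelial tumour lines. It was measured at 13.5 and 16.3 FPKM in HCC827 and at 8.76, 4.80 and 8.08 FPKM in HCC827/GR. Every resistant library was below both parental ones. The means were 7.21 ± 2.12 FPKM (SD, n = 3) and 14.9 ± 2.01 FPKM (SD, n = 2), and the log2(FPKM + 1) difference of -0.98 (SE 0.26, 95% confidence interval -1.67 to -0.29) had an adjusted p of 0.0900 in limma, which is above the threshold of 0.05. Its entry also joins 8 transcripts of neighbouring loci. ALDH1A2 (ENSG00000128918, chr15:57953424-58497866), the main retinoic acid source of the embryo, was listed at 0.0604 and 0.0653 FPKM in HCC827 and at 0.103, 0.107 and 0.0495 FPKM in HCC827/GR. Its groups overlapped, and its mean was too low for the test.

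**Figure D1:**
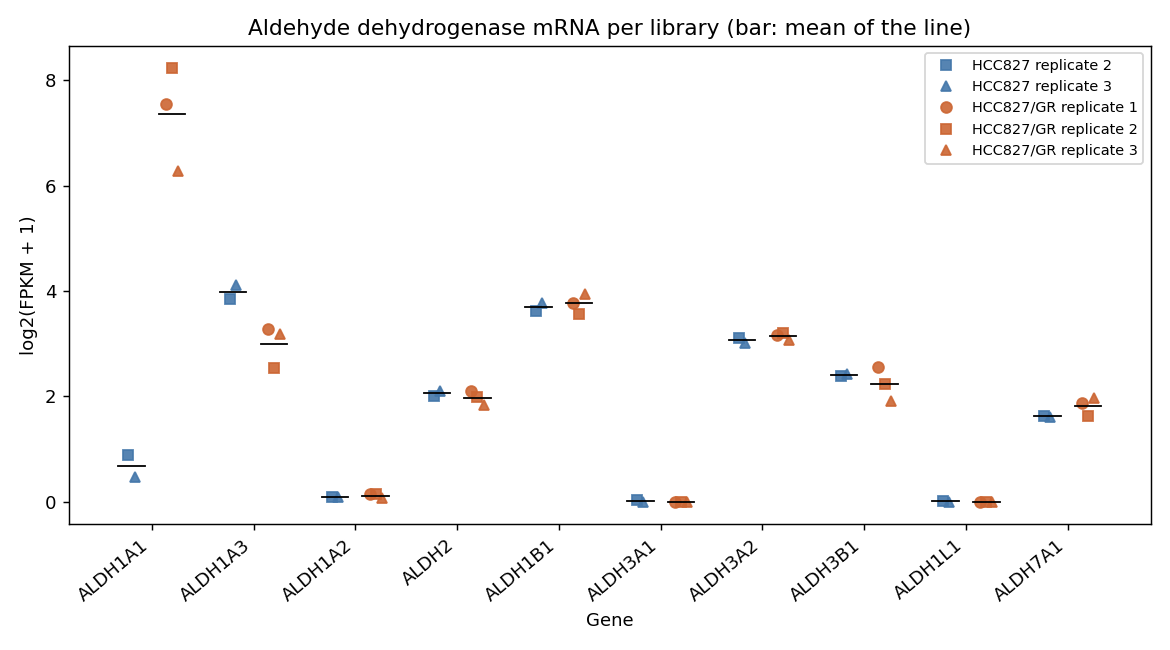
Level of each of the 10 aldehyde dehydrogenases on the log2(FPKM + 1) scale, with 1 point per library (blue for HCC827, n = 2, and orange for HCC827/GR, n = 3) and a bar at each line's mean. ALDH1A1 separates the 2 lines by more than any other member, from 0.381 and 0.851 FPKM to between 76.4 and 300.7 FPKM, and ALDH1A3 lies lower in all 3 resistant libraries.

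The mitochondrial enzymes ALDH1B1 and ALDH2 did not pass the test in either direction. ALDH1B1 (ENSG00000137124, chr9:38392664-38398661), which oxidises acetaldehyde and also retinaldehyde, had 11.4 and 12.7 FPKM in HCC827 and 12.7, 10.9 and 14.4 FPKM in HCC827/GR. The groups overlapped. The log2 difference was 0.06 (SE 0.14, 95% confidence interval -0.31 to 0.44, adjusted p = 0.833 in limma). ALDH2 (ENSG00000111275, chr12:111766887-111817529), the main enzyme for acetaldehyde from alcohol, was listed at 3.03 and 3.32 FPKM in HCC827 and at 3.30, 2.95 and 2.55 FPKM in HCC827/GR, which overlap. Its log2 difference was -0.09 (SE 0.12, 95% confidence interval -0.40 to 0.22, adjusted p = 0.694). The ALDH2 entry holds 28 transcripts, of which 3 belong to ALDH2 and 22 to the adjoining gene ACAD10, so this value cannot be assigned to ALDH2 alone.

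Of the ALDH3 enzymes, ALDH3A2 (ENSG00000072210, chr17:19648136-19677598), the fatty aldehyde dehydrogenase of the endoplasmic reticulum, had 7.67 and 7.08 FPKM in HCC827 and 7.97, 8.25 and 7.40 FPKM in HCC827/GR, with a log2 difference of 0.08 (SE 0.095, 95% confidence interval -0.17 to 0.33, adjusted p = 0.641 in limma). ALDH3B1 (ENSG00000006534, chr11:68008578-68029282), which acts on aldehydes formed by lipid peroxidation, had 4.21 and 4.39 FPKM in HCC827 and 4.93, 3.71 and 2.79 FPKM in HCC827/GR, with a log2 difference of -0.16 (SE 0.21, 95% confidence interval -0.70 to 0.38, adjusted p = 0.672). Both pairs of groups overlapped. ALDH3A1 (ENSG00000108602, chr17:19737984-19748943), a cytosolic enzyme abundant in cornea and in some lung tumours, was listed at 0.0190 FPKM in HCC827 replicate 2 and at 0 in the other 4 libraries. Its entry holds 2 of the gene's 17 annotated transcripts and none of the 10 that code for protein, so the value does not measure the coding transcripts.

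ALDH7A1 (ENSG00000164904, chr5:126531200-126595418), which works in lysine breakdown, had 2.10 and 2.06 FPKM in HCC827 and 2.66, 2.09 and 2.90 FPKM in HCC827/GR. HCC827/GR replicate 2 fell between the parental values, so the groups overlapped, and the log2 difference was 0.20 (SE 0.13, 95% confidence interval -0.15 to 0.55, adjusted p = 0.403 in limma). ALDH1L1 (ENSG00000144908, chr3:126103562-126197994), a folate enzyme that oxidises formyltetrahydrofolate, was listed at 0.0136 and 0 FPKM in HCC827 and between 0.00134 and 0.00283 FPKM in HCC827/GR. Its entry holds 3 of 18 annotated transcripts (1 of 10 coding), and that of ALDH1A2 10 of 25 (2 of 8 coding).

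In all, 7 of the 10 members passed the filter on low values, of which 1 (ALDH1A1) was called higher, none was called lower and 6 were not called at an adjusted p under 0.05. Over all entries tested, 5.26% were called higher and 5.71% lower. The groups did not overlap for 2 of the 7, ALDH1A1 and ALDH1A3, against 46.3% of all entries tested. The median log2 difference of the 7 was 0.06, in a range of -0.98 to 6.68, beside a median of 0.0014 over all entries, and the 6 members other than ALDH1A1 lay between -0.98 and 0.20 on this scale.

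**Figure D2:**
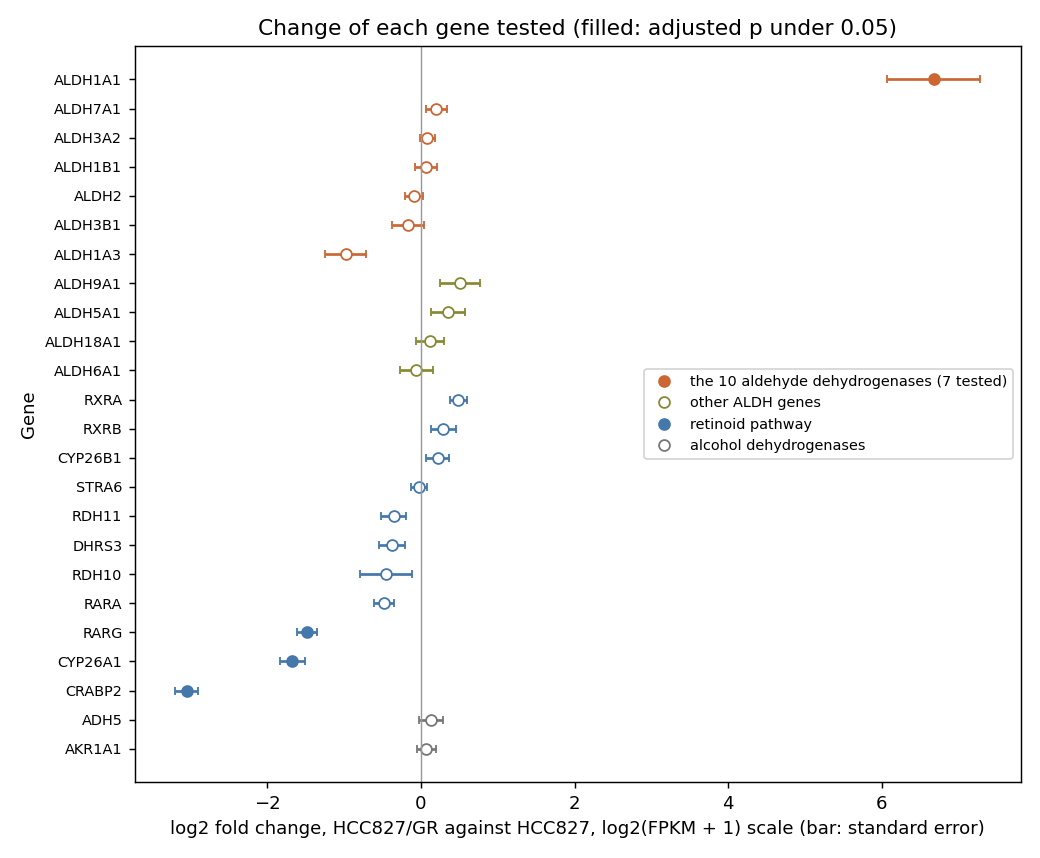
Difference of HCC827/GR from HCC827 on the log2(FPKM + 1) scale for the tested genes of the family, the retinoid pathway and the alcohol dehydrogenases, with bars for the standard error and filled points for an adjusted p under 0.05 in limma. ALDH1A1 lies at 6.68 and is the filled point on the right, ALDH1A3 lies at -0.98, the other 5 members lie near 0, and the filled points on the left are CRABP2, CYP26A1 and RARG.

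The balance among the family members differed between the lines. FPKM is per length, so the levels of entries can be set side by side. In what follows the ALDH2 entry includes ACAD10, the ALDH1A3 entry includes transcripts of neighbouring loci, and the ALDH3A1 entry lacks the coding transcripts, so orders and shares are those of entries. In HCC827 the order of levels was ALDH1A3, ALDH1B1, ALDH3A2, ALDH3B1, ALDH2, ALDH7A1, ALDH1A1 and ALDH1A2, with no overlap between neighbours, and ALDH3A1 and ALDH1L1 followed with overlapping values. In HCC827/GR it was ALDH1A1, then ALDH1B1, then ALDH3A2, ALDH1A3, ALDH3B1, ALDH2 and ALDH7A1, where each neighbour from ALDH3A2 to ALDH7A1 overlapped the next. The FPKM summed over the 10 genes was 42.8 and 46.3 in HCC827 and 226.7, 333.5 and 114.6 in HCC827/GR. Without ALDH1A1 the sums were 41.9 and 45.9 in HCC827 and 40.4, 32.8 and 38.2 in HCC827/GR.

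As a share of that sum, ALDH1A1 made up 1.99% and 0.823% in HCC827 and 82.2%, 90.2% and 66.7% in HCC827/GR. The means were 1.41% ± 0.824 (SD, n = 2) and 79.7% ± 11.9 (SD, n = 3). ALDH1A3 made up 31.5% and 35.2% in HCC827 and 3.87%, 1.44% and 7.05% in HCC827/GR, and ALDH1B1 26.6% and 27.4% against 5.60%, 3.26% and 12.6%. For each of these 3 shares the lines did not overlap, with p = 0.1 in a two-sided exact permutation test over the libraries, the smallest that 3 against 2 allows, and 0.125 after adjustment over the 10 shares. The shares of ALDH1A2, ALDH2, ALDH3A2, ALDH3B1 and ALDH7A1 were likewise lower in HCC827/GR without overlap, with the same p-values. Only those of ALDH1L1 and ALDH3A1 overlapped. Shares sum to a fixed total, so a rise in one lowers the others. With ALDH1A1 left out of the total, ALDH1A3 had 32.1% and 35.5% in HCC827 and 21.7%, 14.6% and 21.2% in HCC827/GR, still apart. ALDH1B1 then had 27.1% and 27.7% in HCC827 and 31.4%, 33.1% and 37.8% in HCC827/GR, the opposite order from that with ALDH1A1 counted.

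**Figure D3:**
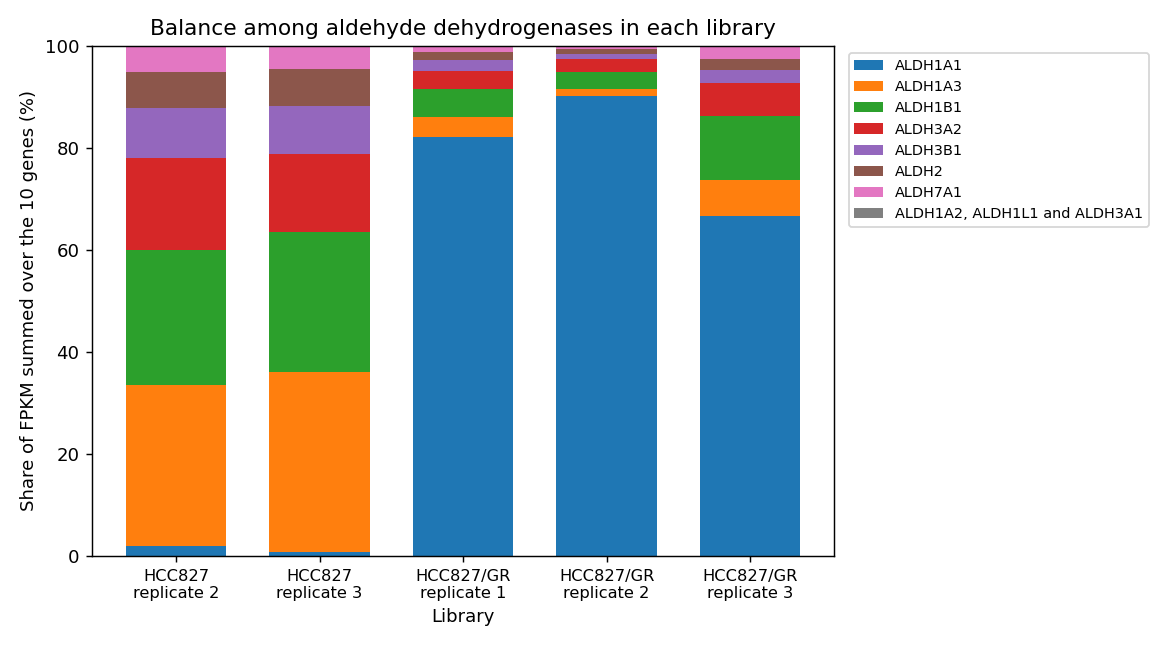
Share of the FPKM summed over the 10 aldehyde dehydrogenases (percent) that each member takes, 1 stacked bar per library. ALDH1A1 fills 0.823% and 1.99% of the parental bars and 66.7% to 90.2% of the resistant ones.

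Within the retinaldehyde class, the FPKM summed over ALDH1A1, ALDH1A2 and ALDH1A3 was 14.4 and 16.8 in HCC827 and 195.2, 305.6 and 84.5 in HCC827/GR. ALDH1A3 held 93.7% and 97.3% of it in HCC827, whereas ALDH1A1 held 95.5%, 98.4% and 90.4% of it in HCC827/GR. The log2 ratio of ALDH1A1 to ALDH1A3 (each FPKM + 1) was -2.97 and -3.65 in HCC827 and 4.26, 5.70 and 3.09 in HCC827/GR, below 0 in both parental and above 0 in all 3 resistant libraries. The difference of 7.66 had an exact two-sided permutation p of 0.1 (n = 3 and 2) and 0.2 after adjustment over 4 pairs of genes.

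The mitochondrial sum, which includes the ACAD10 transcripts of the ALDH2 entry, was 14.4 and 16.0 FPKM in HCC827 and 16.0, 13.8 and 17.0 FPKM in HCC827/GR, of which ALDH1B1 held 79.0% and 79.3% against 79.4%, 78.6% and 85.0%. The log2 ratio of ALDH2 to ALDH1B1 differed by -0.15 between the lines (exact two-sided permutation p = 0.8, adjusted 0.8). Among the ALDH3 enzymes, ALDH3A2 held 64.5% and 61.7% in HCC827 and 61.8%, 69.0% and 72.6% in HCC827/GR, which overlap. The entry of ALDH3A1 holds no coding transcript and was at 0 in 4 of the 5 libraries, so its ratios to ALDH3A2 and ALDH1A1 say nothing of a balance with either gene and are not given.

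Of 9 further aldehyde dehydrogenase genes, 7 had an entry of their own and 4 were tested. None of the 4 was called, beside 5.26% of all entries tested called higher and 5.71% lower. With 4 genes, a lack of calls does not set them apart from that share. The median log2 difference of the 4 was 0.23. ALDH9A1, which works in carnitine synthesis, was named after its values were seen because its groups did not overlap: 18.0 and 32.9 FPKM in HCC827 against 33.4, 34.9 and 37.3 FPKM in HCC827/GR (log2 difference 0.51, SE 0.26, adjusted p = 0.295 in limma). Its 2 parental libraries differed more from each other than the 3 resistant ones did, and the log2 difference was 0.093 without HCC827 replicate 2 and 0.93 (adjusted p = 0.0539) without HCC827 replicate 3. ALDH3B2, the neighbour of ALDH3B1 on chromosome 11, was listed at 0.161 and 0.177 FPKM in HCC827 and at 0 in all 3 HCC827/GR libraries. Its entry holds 4 of 8 annotated transcripts (2 of 5 coding), so these low values do not show that the gene was silent. ALDH4A1 and ALDH16A1 have no value of their own, since their transcripts lie in entries named IFFO2 and RPL13A.

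Genes that make, carry and read retinoic acid were followed as the pathway of the ALDH1A enzymes. Of 17 such genes, 15 had an entry and 11 were tested. Of these, 3 were called lower, none was called higher and 8 were not called, beside 5.71% of all entries called lower and 5.26% called higher. The groups did not overlap for 8 of the 11, against 46.3% of all entries tested. Among those 8, RXRA and CYP26B1 were higher in every resistant library and the others lower. RXRA had 8.03 and 8.54 FPKM in HCC827 and 12.9, 12.3 and 10.9 FPKM in HCC827/GR (log2 difference 0.49, adjusted p = 0.0569 in limma). The median log2 difference of the 11 was -0.38. CRABP2, which carries retinoic acid to its nuclear receptors, was measured at 53.6 and 58.4 FPKM in HCC827 and at 6.87, 5.85 and 4.98 FPKM in HCC827/GR (log2 difference -3.05, SE 0.15, adjusted p = 0.00234 in limma). The receptor RARG had 7.41 and 5.94 FPKM against 1.74, 1.92 and 1.56 FPKM (log2 difference -1.48, SE 0.13, adjusted p = 0.00784). CYP26A1, which degrades retinoic acid and is itself induced by it, had 4.68 and 4.39 FPKM against 0.971, 0.808 and 0.451 FPKM (log2 difference -1.68, SE 0.16, adjusted p = 0.00996). All 3 were lower in every resistant library, while ALDH1A1, which makes the acid, was higher in every one. The CYP26A1 call was lost without HCC827 replicate 2 (adjusted p = 0.0710) and without HCC827 replicate 3 (adjusted p = 0.0624).

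Enzymes on the alcohol side of the aldehydes could be tested for few genes. Of 8 alcohol dehydrogenase and aldehyde reductase genes, 7 had an entry and 2 were tested. Neither was called, beside 5.26% of all entries tested called higher and 5.71% lower, so 2 genes do not depart from that share. ADH1C was below the minimum mean and untested, and was lower in every HCC827/GR library, as given under the other observations. ADH5, which also handles formaldehyde bound to glutathione, had 12.8 and 14.1 FPKM in HCC827 and 12.6, 17.6 and 14.6 FPKM in HCC827/GR (log2 difference 0.13, adjusted p = 0.666 in limma), and AKR1A1 differed by 0.07 (adjusted p = 0.774).

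The genes beside ALDH1A1 on chromosome 9 were read by a rule chosen after its value was seen, the nearest 5 tested protein-coding genes on each side. ANXA1, which lies 170.5 kb away and encodes annexin A1, was abundant in both lines, at 159.5 and 155.8 FPKM in HCC827 and 194.3, 189.5 and 172.9 FPKM in HCC827/GR, a log2 difference of 0.23 (SE 0.10, adjusted p = 0.227 in limma). C9orf40, 1959 kb away, differed by 1.29 (SE 0.15, adjusted p = 0.0140) and ZFAND5, on the other side at -632.2 kb, by -0.64 (SE 0.13, adjusted p = 0.0468). The differences of the remaining neighbours lay between -0.53 and -0.00, and none was called. Among all entries tested, 5.26% were called higher and 5.71% lower.

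**Figure D4:**
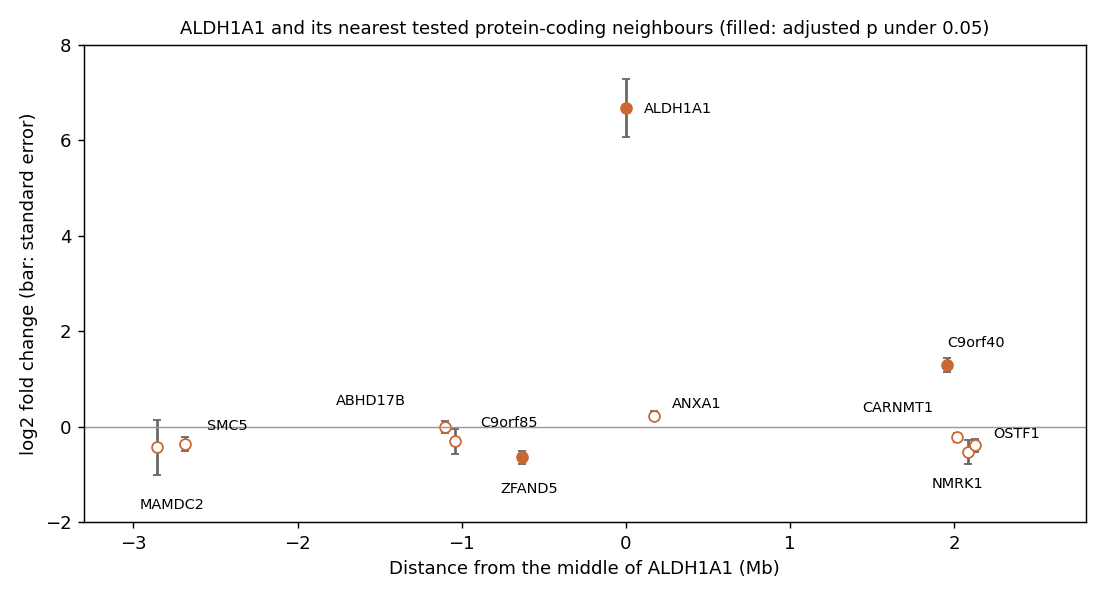
Difference of HCC827/GR from HCC827 on the log2(FPKM + 1) scale for ALDH1A1 and the nearest 5 tested protein-coding genes on either side, against distance from the middle of ALDH1A1 along chromosome 9 (Mb), with bars for the standard error and filled points for an adjusted p under 0.05. ALDH1A1 stands at 6.68, and its 10 neighbours lie between -0.64 and 1.29.

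The tissue label was checked against markers. Of 7 lung epithelial markers 5 had an entry. All 5 were lower in every HCC827/GR library, as were 3796 of the 16189 entries tested. By limma, 4 were called lower at an adjusted p under 0.05, beside 5.71% of all entries tested. EPCAM was at 86.9 and 72.6 FPKM in HCC827 and at 7.32, 10.8 and 8.53 FPKM in HCC827/GR. The summed level of the 5 was 1033 to 1160 FPKM in HCC827 and 437.6 to 565.6 FPKM in HCC827/GR, so an epithelial signal was present in all 5 libraries. Leukocyte markers, 4 of 5 with an entry, summed to 0.318 to 0.378 FPKM in HCC827 and 0.115 to 0.244 FPKM in HCC827/GR, and the 5 fibroblast markers to 3.19 to 3.28 FPKM and 2.48 to 2.76 FPKM. Of the 3 endothelial markers, PECAM1 was listed at 4.34 and 3.32 FPKM in HCC827 and at 0 in HCC827/GR, and all 3 summed to no more than 0.0333 FPKM in HCC827/GR. All these lists were lower in the resistant libraries, where ALDH1A1 was higher, and their part in the results was not tested. Median-ratio size factors of the libraries were 0.990 to 1.04, and 8896 to 9803 entries were listed at 0 in each.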

How the data were processed

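Total RNA of HCC827/GR (replicates 1, 2 and 3) and HCC827 (replicates 2 and 3) was sequenced. The authors depleted ribosomal RNA, and their deposited values are FPKM per gene or assembled locus, made with Cutadapt, Bowtie2, TopHat2, StringTie and Ballgown. The submitters' notes name genome build hg18, while the entries carry Ensembl transcript identifiers and no coordinates. The library protocol in the labels describes small RNA sequencing and the paper's describes mRNA sequencing, and the values cover long transcripts. 1 FPKM column that matched no sample was left out. Positions and transcripts came from GENCODE release 29 (GRCh38), and 31399 of 37181 entries matched.

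Groups were compared with limma 3.58.1 in R 4.3.3 (two-sided, lmFit then eBayes, trended prior). The scale was log2(FPKM + 1), the 16189 entries that averaged 0.5 FPKM or more were tested, and p-values had Benjamini-Hochberg adjustment over all of them, with no rescaling. A fold change on this scale understates the change of low genes. On simulated data made from these entries, 64 of 79 planted log2 changes of 1, 63 of 63 of 2 and 58 of 58 of 4 were called, beside 7 of 15989 unchanged entries. The simulated noise was independent between libraries and normal, with an SD smoothed over entries of like mean. Entries with a wider spread of their own, such as ALDH1A1, are therefore not represented, and the rates may be too high for these data. Shares and ratios were compared with exact permutation tests on the absolute difference (Python 3.11.15, scipy 1.17.1), and plots used matplotlib 3.10.9. All 10 members are named whatever their values, with called genes and chromosome neighbours among the other aldehyde dehydrogenases and the 3 lowest adjusted p of the retinoid and alcohol dehydrogenase lists. Members and lists were chosen with earlier results of these data known. FPKM carries no counts, so counting error could not be given.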

Additional observations from a re-analysis of the deposited data

Results flagged for a closer look

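A second entry of the table also carries the name ALDH1A1. It holds 1 assembled transcript that is not in GENCODE release 29 and was not used in any comparison. It was listed at 0.00503 and 0 FPKM in HCC827 replicates 2 and 3, and at 0.841, 1.38 and 0 FPKM in HCC827/GR replicates 1, 2 and 3. The values of 0.841 and 1.38 FPKM lie above both parental libraries, and HCC827/GR replicate 3 lies at the level of HCC827 replicate 3. With both entries summed, the log2 difference of ALDH1A1 was 6.68.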

How the results depend on the processing

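The direction of ALDH1A1 was higher in HCC827/GR under all 15 alternatives to the limma fit, with log2 differences of 6.23 to 7.91 and adjusted p of 0.00664 to 0.126. Its call was lost with a covariate per library (7.29, adjusted p = 0.0505), with the replicate block (6.58, adjusted p = 0.126), and without either HCC827 replicate. The covariate was the sum of a library's log2(FPKM + 1) values below the upper quartile of those above 0. It comes from scaled values and does not measure sequencing depth. Leaving out 1 library in turn gave 6.23 to 7.22. As a ratio of mean FPKM, chosen after seeing the data, it was 8.25 on the log2 scale. ALDH1A3 was lower and not called under the same alternatives (-1.13 to -0.75, adjusted p 0.0687 to 0.292).

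The labels do not say that replicate numbers pair the lines. Deviations of same-numbered libraries from the means of their lines correlated at 0.0328 and 0.0147, and those of libraries with unlike numbers at -0.0328 to 0.0174. The deviations of the parental libraries mirror each other, so these values cannot show whether the lines are paired. The fit with the replicate block, over 4 libraries that share numbers, called 0 genes higher and 0 lower, with 1676 and 1869 at an unadjusted p under 0.05 by limma, so it called neither ALDH1A1 nor CRABP2, RARG and CYP26A1. Genes called higher were 504 without a filter on low values and 68 with the covariate per library, against 851, and 181 to 450 with 1 HCC827/GR library left out. Genes called lower were 77 with the covariate, against 924, and 248 to 434 with 1 library left out. The number of members called, 1, was 0 with the covariate, with the block and without either HCC827 replicate, and 0 to 1 with 1 library left out. With the covariate, RARG (adjusted p = 0.0675) and CYP26A1 (0.0521) also lost their calls.

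The ALDH1A1 share rose by 59.9 points when all listed aldehyde dehydrogenases made up the total, against 78.3, and that of ALDH1A3 differed by -12.3 points, or by -14.7 without ALDH1A1 in the total, against -29.2. With a pseudocount of 0.1, the log2 ratio of ALDH1A1 to ALDH1A3 differed by 8.98. With ALDH1A1 out of the total, chosen after seeing the data, the share differences reversed to 0.0940 points for ALDH1A2, 6.72 for ALDH1B1, 0.728 for ALDH2, 4.56 for ALDH3A2, 0.471 for ALDH3B1 and 2.12 for ALDH7A1. That total no longer holds ALDH1A1 and was itself lower in HCC827/GR, at 40.4, 32.8 and 38.2 FPKM against 41.9 and 45.9 FPKM in HCC827. Small uncalled log2 differences reversed for ALDH1B1 (-0.023 with the covariate, -0.030 to 0.16 with a library left out), ALDH2 (0.039, covariate), ALDH3B1 (0.14, covariate), ALDH18A1 (-0.039 to 0.21 with a library left out) and ALDH6A1 (0.0022 with quantile normalization, 0.068 with the covariate, -0.22 to 0.10 with a library left out). The cause was not tested. The scalings tried moved the median of all entries by less than 0.1 log2 units. With 5 libraries and FPKM without counts, levels near 0 cannot be separated.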

Other observations

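Some genes of the lists lay below the minimum mean of 0.5 FPKM and were chosen after their values were seen. DHRS9, a retinol dehydrogenase, was listed at 0.130 and 0.131 FPKM in HCC827 and at 0.836, 0.788 and 0.545 FPKM in HCC827/GR, higher in all 3 resistant libraries. ADH1C, a class I alcohol dehydrogenase, was listed at 1.14 and 1.00 FPKM in HCC827 and at 0.138, 0.0892 and 0.116 FPKM in HCC827/GR, lower in all 3. ALDH8A1, which works in tryptophan breakdown, was listed at 0.0287 and 0.0492 FPKM in HCC827 and at 0.120, 0.150 and 0.149 FPKM in HCC827/GR. The ALDH8A1 entry holds 3 of 6 annotated transcripts (2 of 5 coding). ALDH1L2, the mitochondrial counterpart of ALDH1L1, was listed at 0.167 and 0.267 FPKM in HCC827 and at 0.0668, 0.129 and 0.0796 FPKM in HCC827/GR. None of these differences was tested.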
